A study of Sus scrofa with 28 samples.

Results

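The genes described are 6 of the 6765 genes named on the array, and they restrain or dissolve blood clots or bind platelets and matrix: THBS1, SERPINE2, PLAU, PLAT, PROS1 and THBD. They were measured by the probe sets whose porcine array annotation gives exactly 1 gene symbol that is one of these names, and there were 10 of them among the 23999 probe sets tested: 5 for THBS1 and 1 for each of the other genes. Lung tissue was taken from large anesthetized female swine (Sus scrofa) 12 h after a 10 min inhalation through a tube, of air in 3 animals, of sulfur mustard (HD) vapor at 60 ug/kg, called low, in 3 animals, and of HD vapor at 100 ug/kg, called medium, in 4 animals. HD is an alkylating blister agent that injures the airway lining. One array was hybridised per lung lobe, from the left apical, median and caudal lobes as the labels name them, and there were 9 air arrays, 9 low arrays and 10 medium arrays. Medium animal 39 had no caudal array here and medium animal 41 no apical array, so that 8 of 10 animals had all 3 lobes. All groups, the air animals included, were anesthetized, and the protocol given for every sample adds premedication, intubation and a supine position. No group without anesthesia was analysed here.

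Clot formation after vessel injury is held in check by anticoagulants and is later reversed by fibrinolysis, the cleavage of fibrin by plasmin. Thrombomodulin (THBD), on the endothelial surface, binds thrombin and turns it toward activation of protein C, and protein S (PROS1) is the cofactor of activated protein C. Urokinase (PLAU) and tissue plasminogen activator (PLAT) convert plasminogen to plasmin, and SERPINE2, also called protease nexin-1, inhibits thrombin and both activators. Thrombospondin-1 (THBS1) is a matrix and platelet protein that binds CD47 and CD36 and activates latent TGF-beta.

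The deposited signals were array intensities with a trimmed mean of 150 on each array and a median between 55.4 and 64.2. Signals of different probe sets were not compared with each other. Of the lung markers, 5 of 8 were measured, and their summed signal lay between 5986 and 7582 in air animals, 7103 and 7646 in low animals and 5368 and 7834 in medium animals. The log2 ratio of 3' to 5' signal over 5 pairs of control probe sets, a measure of RNA integrity, ran between 0.52 and 0.83 in air animals and between 0.17 and 0.53 in low animals. It was 0.20 in medium animal 34, 1.34 in 39, 0.67 in 41 and 0.23 in 42, so that animal 39 stood highest. In whole tissue, fewer cells of a type and less RNA per cell cannot be told apart.

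The 5 THBS1 probe sets are called here the first to the fifth in the order of their mean signal over the 28 arrays, which was 1057, 381, 246, 21.3 and 3.75. On the first probe set the signal, averaged over the lobes of an animal, was 908 in air animal 28, 948 in 29 and 809 in 44, then 918, 1005 and 793 in low animals 31, 32 and 33, and 1074, 1202, 1739 and 1452 in medium animals 34, 39, 41 and 42. The low animals overlapped the air animals, with 32 above and 33 below all of them, and all 4 medium animals lay above both groups. Of all probe sets, 13.1% had no overlap between medium and air animals, and 13% had none between medium and low animals. The mean was 1367 ± 294 in medium animals and 888 ± 71.2 in air animals (SD, n = 4 and 3). The lobe-adjusted difference, medium minus air, was 0.54 ± 0.14 on the log2 scale (SE; 95% interval 0.23 to 0.85), with limma's adjusted p = 0.12, which did not pass the threshold of 0.05. The SE comes from a limma fit to 1 value per animal, and the adjusted p from the Benjamini-Hochberg method over all 23999 probe sets.

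The other 4 THBS1 probe sets were higher in medium animals than in air animals by 0.37 to 1.60 on the log2 scale, and none passed the threshold. On the second probe set the medium animals had signals of 462, 269, 1114 and 777, against 221, 246 and 153 in air animals, with a difference of 1.29 ± 0.38 (SE) and an adjusted p = 0.15. All medium signals lay above all air signals, although medium animal 39, at 269, was near the highest air animal, at 246. Animal 39 has no caudal array, and on the lobe-adjusted log2 scale of the fit it stood at 7.96, below air animal 29 at 8.004. Without animal 39 the difference was 1.65 with limma's adjusted p = 0.0385, and over the 17 alternatives run for this value the adjusted p ran between 0.0229 and 0.357.

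On the third probe set the air animals had 97.4, 61.4 and 293, the low animals 84.7, 98.3 and 58.8, and the medium animals 126, 703, 720.1 and 529. The groups overlapped between medium and air because medium animal 34 was low and air animal 44 was high. The difference was 1.60 ± 0.61 (SE; medium minus air, limma's adjusted p = 0.233). Animal 39, lowest of the medium animals on the second probe set, was among the highest here, and the correlation of these 2 probe sets over the 28 arrays was 0.51, against 0.86 between the first probe set and the second probe set, a description of arrays that share animals.

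The remaining pair of THBS1 probe sets was dim. The fourth probe set averaged 27.6 ± 11.9 in medium animals and 14.6 ± 1.13 in air animals (SD, n = 4 and 3), and its difference was 0.41 ± 0.17 (SE) with limma's adjusted p = 0.28, or 0.58 with an adjusted p = 0.0382 without animal 39. Over its alternatives the adjusted p ran between 0.0382 and 0.539. The fifth probe set stood at 16.1 and 14.8 in medium animals 41 and 42, but at 1.19 and 2.49 in medium animals 34 and 39, and at 0.69, 1.07 and 2.005 in air animals. Its difference of 0.37 ± 0.165 (SE, limma's adjusted p = 0.303) thus came from a pair of animals, and an offset of 16 added before log2 holds down changes of such dim signals.

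**Figure D1:**
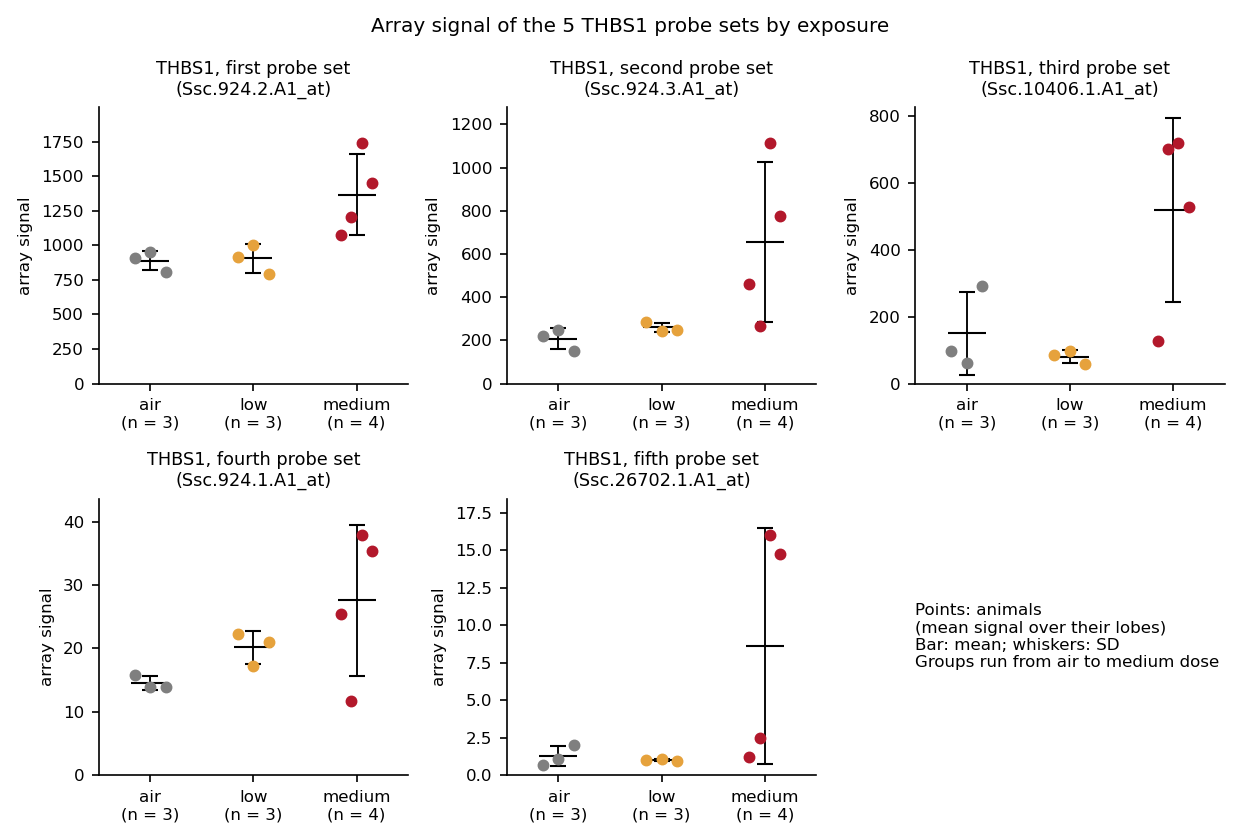
Array signal (linear, from 0) of the 5 THBS1 probe sets in each animal, averaged over its lobes, for the air, low and medium groups; horizontal bars are means and whiskers SD. On the first probe set all medium animals, between 1074 and 1739, lie above the air animals, while on the third probe set medium animal 34, at 126, lies among them.

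SERPINE2, the inhibitor of thrombin and of the plasminogen activators, followed an order of air, low and medium in its group means. Its signal was 334, 295 and 389.9 in air animals 28, 29 and 44, then 574, 384 and 353 in low animals 31, 32 and 33, and 618, 639, 609 and 482 in medium animals 34, 39, 41 and 42. Every medium animal lay above every air animal, whereas low animal 31 lay among the medium animals and the other low animals lay close to the air animals. The mean of animal 31 rested mostly on its apical array, at 797, against 556 in its median and 369 in its caudal lobe. In the median lobe animal 31 was below every medium animal, of which the lowest had 703. Medium and air animals did not overlap for 13.1% of all probe sets. The mean was 587 ± 71.3 in medium animals and 339.6 ± 47.7 in air animals (SD, n = 4 and 3), a lobe-adjusted difference of 0.63 ± 0.165 on the log2 scale (SE) with limma's adjusted p = 0.128. The low minus air difference was 0.32 ± 0.18 (SE, limma's adjusted p = 0.698) and the medium minus low difference was 0.31 ± 0.165 (adjusted p = 0.347), so the neighbouring doses did not differ beyond their spread. Without low animal 31 these were 0.124 for low minus air and 0.501 for medium minus low, and without low animal 33 medium minus low was 0.171.

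PLAU, encoding urokinase, had a higher mean in medium animals than in both other groups, and neither difference passed the adjusted threshold. Its signal was 376, 315, 471 and 367 in medium animals, against 247, 218 and 244 in low animals, and the groups did not overlap. This held for 13% of all probe sets. Medium minus low was 0.64 ± 0.15 (SE; limma's adjusted p = 0.118). Air animals had 222, 266 and 317, and air animal 44, at 317, overlapped the lowest medium animal, 39, at 315. Medium minus air was 0.49 ± 0.15 (SE; adjusted p = 0.163), and low minus air was -0.14 ± 0.16 (SE; adjusted p = 0.832).

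PLAT, encoding tissue plasminogen activator, showed no difference beyond its spread. Its signal was 150.3, 223, 284 and 233 in medium animals and 168, 163 and 206 in air animals, and medium animal 34 was below every air animal. Low animals had 266, 179 and 246. Medium minus air was 0.28 ± 0.20, low minus air 0.30 ± 0.22 and medium minus low -0.02 ± 0.20 (SE), with limma's adjusted p between 0.523 and 0.967. Medium minus air was 0.444 without animal 34 and 0.147 without animal 41. The interval of medium minus low, -0.48 to 0.43, allows a difference of either sign between the doses.

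PROS1, encoding protein S, had a lower signal in all exposed animals than in the air animals. Its signal was 937, 1108 and 971 in air animals, 882, 842 and 921 in low animals, and 827, 875, 762 and 741 in medium animals. All low and all medium animals lay below the lowest air animal, while the low and medium animals overlapped. Of all probe sets, 18.9% had no overlap between low and air animals, and 13.1% had none between medium and air animals. On the lobe-adjusted log2 scale low animal 33, at 9.892, was close to air animal 28, at 9.899. The mean was 802 ± 61.4 in medium animals and 1005 ± 90.5 in air animals (SD, n = 4 and 3). Medium minus air was -0.31 ± 0.08 (SE; limma's adjusted p = 0.129), low minus air was -0.18 ± 0.09 (adjusted p = 0.681), and medium minus low was -0.13 ± 0.08 (adjusted p = 0.416).

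THBD, encoding thrombomodulin, divided the medium animals. Its signal was 971 and 989.6 in medium animals 41 and 42, but 689 in 34 and 502 in 39, against 616, 596 and 631 in air animals. Medium animal 39 was thus below, and the other medium animals above, the air animals, whose SD was only 17.5 around a mean of 615 (n = 3). Low animals had 626, 678 and 525. Medium minus air was 0.30 ± 0.22 (SE; limma's adjusted p = 0.524), and it was 0.502 without animal 39 (adjusted p = 0.115) but 0.168 without animal 41 and 0.193 without animal 42. Low minus air was -0.03 ± 0.23 (SE; limma's adjusted p = 0.986). Endothelial marker genes, 12 of 14 measured, had a summed signal between 6888 and 7686 in medium animals and between 6745 and 7424 in air animals, ranges that overlapped.

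**Figure D2:**
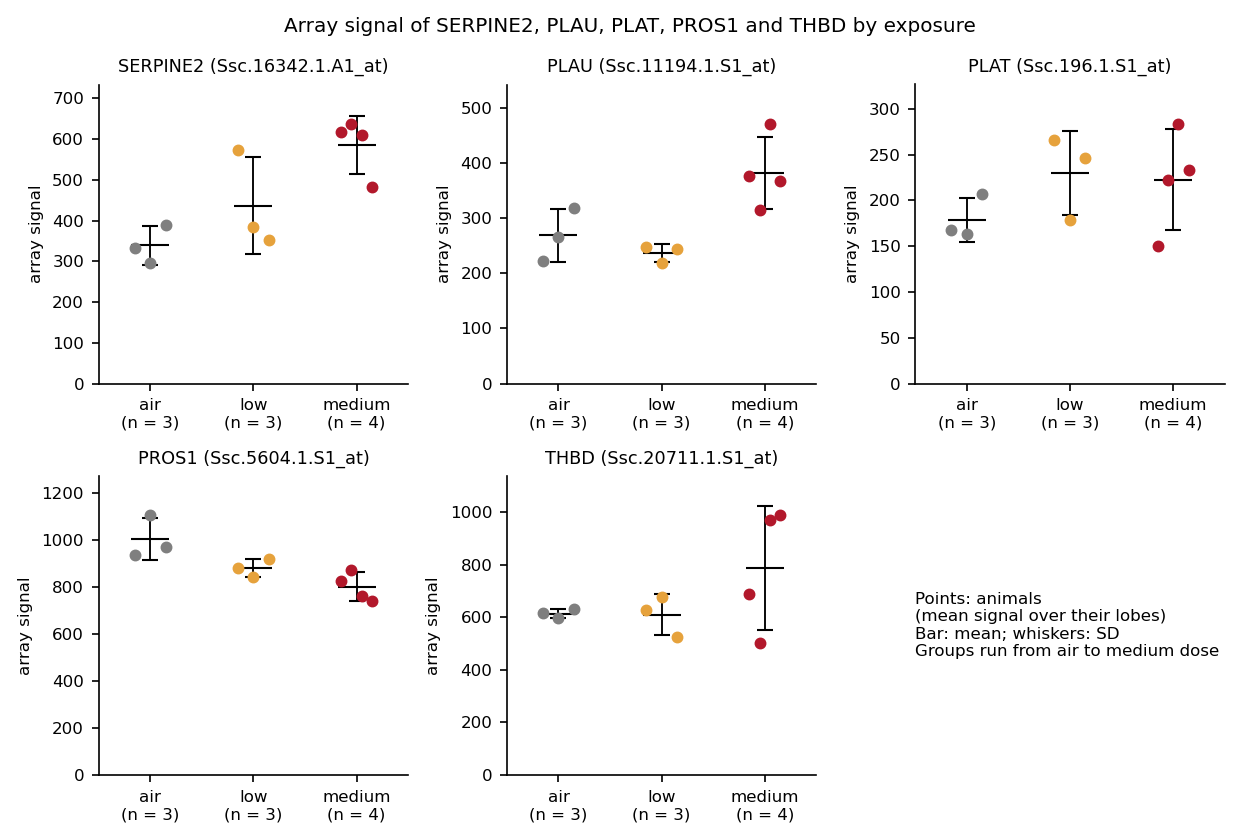
Array signal (linear, from 0) of SERPINE2, PLAU, PLAT, PROS1 and THBD in each animal, averaged over its lobes, for the air, low and medium groups; horizontal bars are means and whiskers SD. SERPINE2 is higher and PROS1 lower in all 4 medium animals than in all 3 air animals, and THBD is above all air animals in 3 medium animals, by most in a pair of them (971 and 989.6).

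Counted over the members, 0 of 10 probe sets passed limma's adjusted threshold in medium minus air, where 0.129% of all 23999 did. At an unadjusted p under 0.05 there were 7 of 10, of which 6 were higher (THBS1 by 4 probe sets, SERPINE2 and PLAU) and 1 was lower (PROS1), where 16.6% of all probe sets reached that level. The medium and air animals did not overlap for 4 of 10 members, against 13.1% of all probe sets, or for 3 of 10, against 13.5%, on the lobe-adjusted scale, a comparison added after seeing the data in which THBS1 on the second probe set overlapped. The median difference over the 10 members was 0.45, against -0.0006 over all probe sets, and 9 of 10 were above 0. As 5 of the 10 members measure THBS1, they are not independent of each other. The members were also chosen with earlier results of these data known, so neither these shares nor those below test the members as a set.

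For low minus air, 0 of 10 members passed limma's adjusted threshold, as did 0% of all probe sets, and 0 of 10 had an unadjusted p under 0.05, against 7.42%. The animals did not overlap for 2 members, PROS1 and THBS1 by the fourth probe set, where 18.9% of all probe sets had no overlap. On the lobe-adjusted scale this held for 1 member, PROS1, against 18.6%. The member differences lay between -0.55 and 0.36. For medium minus low, 0 of 10 members passed with limma, against 0.00417% of all probe sets, and 5 had an unadjusted p under 0.05, against 18.2%. These were PLAU and 4 THBS1 probe sets, all higher. Animals did not overlap for 4 members, against 13% of all, with a THBS1 difference of 0.53 ± 0.14 on the first probe set (SE; adjusted p = 0.132) and of 2.145 ± 0.61 on the third probe set (adjusted p = 0.149). The medium minus air and medium minus low comparisons share the medium animals.

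A fit of all arrays with the animal as a random effect, an alternative to the fit of 1 value per animal, called 4 of 10 members in medium minus air. They were THBS1 on the first probe set (adjusted p = 0.0389, against a highest of 0.322 over its alternatives), THBS1 on the second probe set (0.0229), PLAU (0.0249, highest 0.401) and PROS1 (0.0223, highest 0.395). In medium minus low it called THBS1 on the first probe set (0.0366) and the third probe set (0.0123) and PLAU (0.00578). Of all 23999 probe sets this fit called 1037 in medium minus air, against 31 in the fit of 1 value per animal. In medium minus low it called 1393, against 1. It uses 1 correlation between lobes, 0.334, for all probe sets. Where animals vary more than that, it can understate the error of an exposure difference. For THBS1 on the third probe set the SD was 0.93 among animals and 0.60 among lobes, and for PLAU 0.22 and 0.16. The other probe sets that this fit called did not vary more among animals than among lobes. Their SDs were 0.195 and 0.30 for THBS1 on the first probe set, 0.58 and 0.595 on the second, and 0.097 and 0.145 for PROS1.

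**Figure D3:**
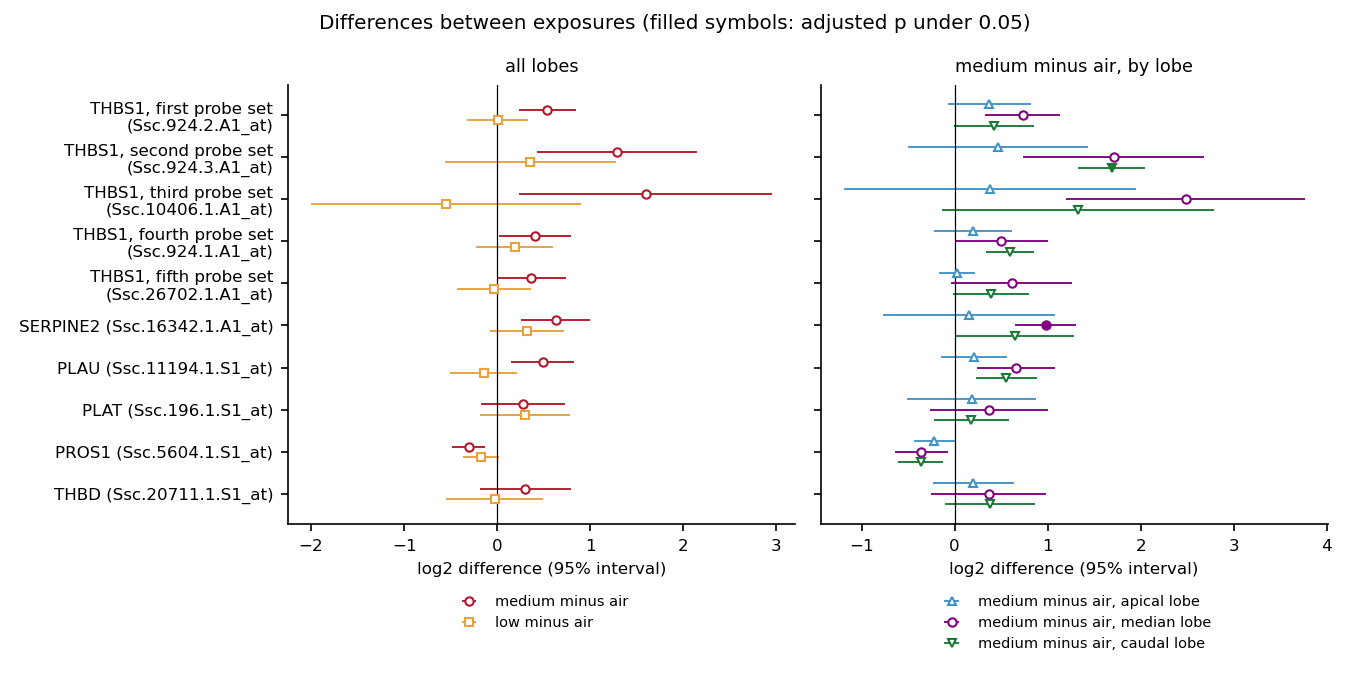
Log2 differences of the 10 member probe sets with 95% intervals from limma, for medium minus air and low minus air over all lobes (left) and for medium minus air within each lobe (right); filled symbols have an adjusted p under 0.05. Only SERPINE2 in the median lobe (0.98) and THBS1 on the second probe set in the caudal lobe (1.69) are filled.

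Each lobe was also tested alone. In the median lobe SERPINE2 rose in medium animals, with signals of 703, 942, 742 and 809 in medium animals 34, 39, 41 and 42, against 374, 344 and 468 in air animals 28, 29 and 44. The lowest medium array was well above the highest air array. The difference was 0.98 ± 0.15 on the log2 scale (SE; limma's adjusted p = 0.0411), in a comparison that called 0.404% of all probe sets. The call was lost without any 1 of animals 28, 29, 39, 41, 42 and 44 (differences between 0.88 and 1.10, adjusted p between 0.0537 and 0.182), and with an offset of 1 before log2 (adjusted p = 0.0779).

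In the same lobe, 7 of 10 members had an unadjusted p under 0.05 in medium minus air, against 18.6% of all probe sets. THBS1 on the first probe set had 1237, 1444, 2061 and 1820.3 in medium animals and 1042, 904 and 835 in air animals, a difference of 0.73 ± 0.18 (SE; limma's adjusted p = 0.0908). On the third probe set the arrays had 208, 1038, 869.8 and 801 in medium animals and 128, 31.3 and 197 in air animals. The 3 highest were 39, 41 and 42, animal 34 was close to air animal 44, and the difference was 2.48 ± 0.575 (SE; adjusted p = 0.0816), or 2.99 with an adjusted p = 0.0304 without animal 34 (between 0.0304 and 0.277 over the alternatives).

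PLAU in the median lobe had 338, 337, 536 and 349 in medium animals and 186, 249 and 285 in air animals. These did not overlap, but the share of all probe sets without overlap was not computed within a lobe. The difference was 0.66 ± 0.19 (SE; limma's adjusted p = 0.114). PROS1 differed there by -0.36 ± 0.13 (SE; adjusted p = 0.181). PLAT and THBD differed by 0.37 ± 0.28 each (SE; adjusted p of 0.516 and 0.513).

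In the caudal lobe THBS1 rose on the second probe set. Its signals were 636, 698 and 653 in medium animals 34, 41 and 42, against 148, 241 and 212 in air animals 28, 29 and 44. The medium arrays lay close together and far above the air arrays. The difference was 1.69 ± 0.16 (SE; limma's adjusted p = 0.0458), and this was the only probe set of all 23999 that was called in this comparison, 0.00417%. The call was lost without any 1 of animals 29, 41, 42 and 44 (differences between 1.64 and 1.82, adjusted p between 0.0632 and 0.234) and with an offset of 1 (adjusted p = 0.112). Animal 39, the lowest medium animal on this probe set, has no caudal array here. None of the other THBS1 probe sets was called in this lobe. The first differed by 0.425 ± 0.19, the third by 1.33 ± 0.65, the fourth by 0.595 ± 0.115 and the fifth by 0.39 ± 0.18 (SE; limma's adjusted p between 0.119 and 0.367).

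At an unadjusted p under 0.05, 5 of 10 members reached medium minus air in the caudal lobe, against 15.5% of all probe sets. PLAU had 422, 407 and 363 in medium animals, against 222, 260.5 and 333 in air animals, with a difference of 0.55 ± 0.145 (SE; limma's adjusted p = 0.156). PROS1 had 732, 749 and 706 in medium animals, against 895, 1016 and 959 in air animals, with a difference of -0.36 ± 0.11 (SE; adjusted p = 0.187). Neither pair of groups overlapped, again with no share of all probe sets computed within the lobe. SERPINE2 differed by 0.645 ± 0.28 (SE; adjusted p = 0.316), with medium animal 34 at 805, and the other medium animals, at 477 and 414, below air animal 44, at 498.

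In the apical lobe 0 of 10 members passed limma's adjusted threshold in medium minus air, as did 0% of all probe sets, and 1 of 10, PROS1, had an unadjusted p under 0.05, against 5.77%. PROS1 had 943, 933 and 838 in medium animals 34, 39 and 42, against 1074, 1133 and 1002 in air animals, with a difference of -0.22 ± 0.10 (SE; adjusted p = 0.861). SERPINE2 had 346, 335 and 222 in medium animals, against 300.0, 291 and 203 in air animals, which overlapped, with a difference of 0.155 ± 0.41 (SE; adjusted p = 0.994). Its highest apical signal, 797, was in low animal 31, against 288 and 216 in the other low animals. THBS1 on the first probe set had 839, 959 and 1239 in medium animals, against 779, 812 and 759 in air animals. These did not overlap, again with no share of all probe sets computed within the lobe. The difference was 0.37 ± 0.20 (SE; limma's adjusted p = 0.881). All other THBS1 probe sets overlapped between these groups. THBS1 on the second probe set had 209, 136 and 465 in medium animals, against 220.1, 186 and 114 in air animals. Only animal 42 stood above the air animals there (0.47 ± 0.43, SE; adjusted p = 0.943).

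Low minus air called 0 of 10 members and 0% of all probe sets in each of the apical, median and caudal lobes. Medium minus low called 0 of 10 members in each lobe, with 0% of all probe sets in the apical, 0.0208% in the median and 0% in the caudal lobe. The smallest adjusted p of a member there, 0.0712, was that of THBS1 on the third probe set in the median lobe (2.78 ± 0.575, SE), followed by SERPINE2 in the median lobe (0.70 ± 0.15, SE; limma's adjusted p = 0.0734). Whether the exposure differences differed between lobes was tested by the interaction of exposure and lobe, with the animal as a block. None of the 10 members passed (limma's adjusted p between 0.595 and 0.967), as did 0% of all probe sets. Lowest was THBS1 on the third probe set, with an unadjusted p = 0.00127 and an adjusted p = 0.595.

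Between lobes of the same animals, 3 of 10 members were called lower in the apical than in the median lobe, where 2.41% of all probe sets were called in either direction. They were SERPINE2 and the brightest pair of THBS1 probe sets. The members with an unadjusted p under 0.05 numbered 6 of 10, against 16.6% of all probe sets. SERPINE2 ran between 203 and 797 with a median of 291 over 9 apical arrays, and between 344 and 942 with a median of 521 over 10 median arrays. It was lower in the apical lobe in 8 of 9 animals, the exception being low animal 31, and the difference was -0.79 ± 0.19 on the log2 scale (SE; limma's adjusted p = 0.038). The mean of this difference was -0.565 in air animals, -0.35 in low animals and -1.42 in medium animals (n = 3 each).

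THBS1 on the first probe set ran between 652 and 1239 with a median of 812 in the apical lobe, and between 835 and 2061 with a median of 1112 in the median lobe, a difference of -0.38 ± 0.10 (SE; limma's adjusted p = 0.0441). On the second probe set the medians were 187 in the apical lobe and 322 in the median lobe, and the difference was -0.76 ± 0.18 (SE; adjusted p = 0.038). Both were lower in the apical lobe in 8 of 9 animals, again with low animal 31 as the exception. None of these 3 calls was kept in the air animals alone, where the differences were -0.26 for the first probe set, -0.42 for the second probe set and -0.565 for SERPINE2 (adjusted p between 0.788 and 0.817, n = 3). That fit of the air animals called 0 of all probe sets, so the loss of these calls does not set the members apart and cannot show a dependence on exposure.

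Leaving out 1 animal ended these lobe calls in most cases. Those of SERPINE2 and of THBS1 on the first probe set were lost without any 1 of animals 28, 32, 33, 34, 39, 41, 42 and 44 (adjusted p between 0.0516 and 0.129), and that of the second probe set also without animal 29 (0.0503 to 0.126 over 9 animals). With each animal left out, the differences kept their sign. They ran from -0.956 to -0.675 for SERPINE2, and for THBS1 from -0.466 to -0.318 on the first and -0.899 to -0.67 on the second probe set. Without low animal 31 the SERPINE2 difference was -0.96 with limma's adjusted p = 0.0145. Several cell type lists were also lower in the apical lobe. Of the epithelial markers, 7 of 7 measured were below 0 in apical minus median and 2 were called lower. Their summed signal ran between 3337 and 4603 in the apical and between 3414 and 5986 in the median lobe. Of the ciliated cell markers, 5 of 5 were below 0 and TUBB4B was called, with sums between 738 and 1532 in the apical and between 798 and 1732 in the median lobe. Of the lung markers, 4 of 5 were below 0 and SFTPD was called, with sums between 4353 and 7788 in the apical and between 6355 and 8424 in the median lobe. Of the smooth muscle markers, 5 of 8 were below 0 and none was called with limma, with 4 lower at an unadjusted p under 0.05, against 16.6% of all probe sets. Their sums lay between 6766 and 10778 in the apical and between 8036 and 11602 in the median lobe. Other lists went the other way, with 8 of 9 T and NK cell markers and 6 of 7 macrophage and monocyte markers above 0 and none called. The part of these lists in the result was not tested.

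PROS1 went the other way by lobe. It had a median of 941 over 9 apical arrays, 829.6 over 10 median arrays and 895 over 9 caudal arrays. Apical minus caudal was 0.18 ± 0.05 (SE; limma's adjusted p = 0.129) and above 0 in 8 of 8 animals, and apical minus median was 0.15 ± 0.05 (adjusted p = 0.111) and above 0 in 7 of 9 animals. In apical minus caudal 0 of 10 members passed, against 0.167% of all probe sets, and 3 had an unadjusted p under 0.05, against 13.6%. In median minus caudal 0 of 10 passed, as did 0% of all, and 2 had an unadjusted p under 0.05, against 11.6%.

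**Figure D4:**
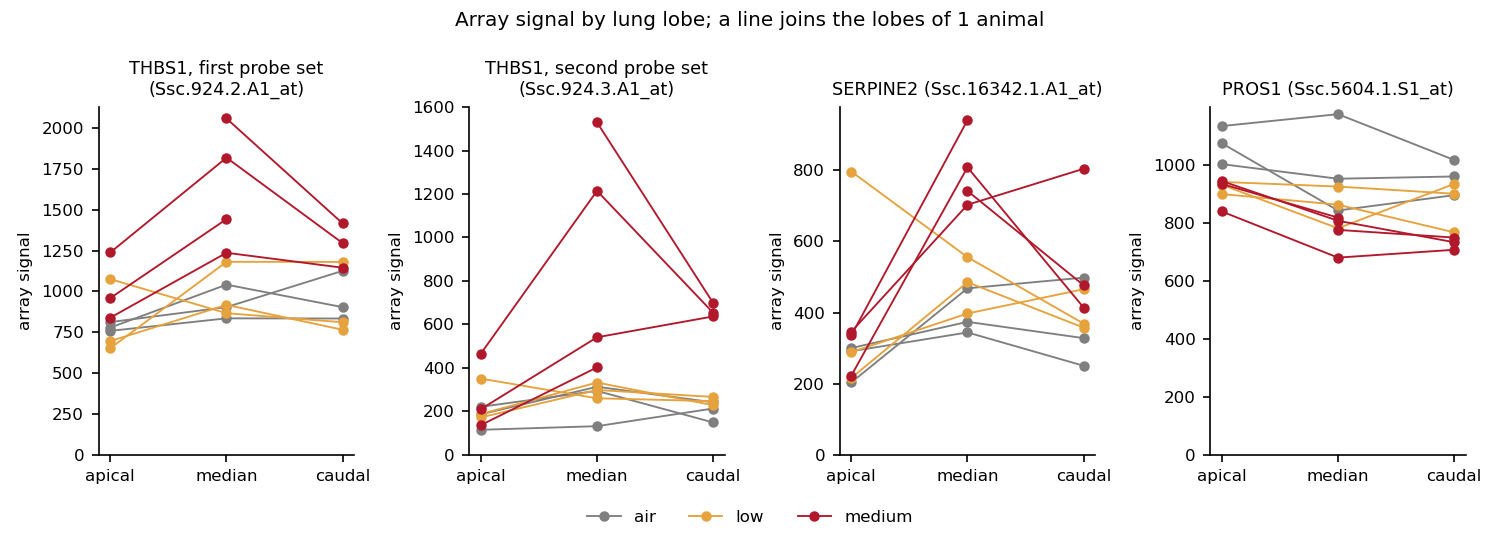
Array signal (linear, from 0) in the apical, median and caudal lobes for THBS1 (2 probe sets), SERPINE2 and PROS1; each line joins the lobes of 1 animal, coloured by exposure. The apical signal of SERPINE2 and THBS1 lies below the median-lobe signal in 8 of 9 animals with both lobes, and low animal 31, at 797 for SERPINE2, is the exception.

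The members differed in how much they varied among animals and among lobes. The SD among animals of 1 exposure was 0.10 on the log2 scale for PROS1 and 0.93 for THBS1 on the third probe set. SERPINE2 had an SD of 0.24 among animals but 0.62 among the lobes of an animal, the widest spread between lobes of the 10 members. For THBD the SD was 0.47 among medium animals and 0.05 among air animals.

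Over the 28 arrays, which share animals, lobes and exposures, THBS1 (on the first probe set) correlated with SERPINE2 at r = 0.60 and with PROS1 at r = -0.645, and SERPINE2 with PROS1 at r = -0.59. SERPINE2 and THBD had r = -0.05. Of 5039 genes compared, those with the most similar pattern to THBS1 were SLC12A4 (r = 0.88), SLC7A1 (0.87) and KRT8 (0.87), of which KRT8, a keratin, is also on the list of epithelial markers. SERPINE2 was most like NPM3 (0.90), FBL (0.89) and APEX1 (0.88). PROS1 was most like S100B, FBXO32 and ACBD5 (r between 0.879 and 0.883), PLAU most like RHOB (0.795), THBD most like KLF13 (0.87), and PLAT most like TIMP1, at only 0.65. These correlations are descriptions, and no p-value is attached to them.

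Other genes of the same pathways, leaving out the members, were counted from lists by their brightest probe set in medium minus air. Of 14 measured coagulation factors and receptors, 7 were above and 7 below 0, and 1 was called. It was tissue factor F3, the trigger of the extrinsic pathway, which rose by 1.26 ± 0.17 (SE; limma's adjusted p = 0.0329), with mean signals of 439.7 in air, 698 in low and 1153 in medium animals. The call was lost under 8 of 17 alternatives, among them without any 1 of animals 28, 29, 41, 42 and 44 (differences over all alternatives between 1.11 and 1.41, adjusted p up to 0.223). The thrombin receptor F2R differed by 0.28 ± 0.09 (SE; adjusted p = 0.196), and the dim F9 by -0.24 ± 0.09 (SE; adjusted p = 0.235). Of 8 measured anticoagulants, 5 were above 0 and none passed the adjusted test with limma, with 2 at an unadjusted p under 0.05, where 16.6% of all probe sets reached that level. These were the endothelial protein C receptor PROCR (0.50 ± 0.22, SE; adjusted p = 0.3) and the dim SERPIND1, heparin cofactor II (0.36 ± 0.12, SE; adjusted p = 0.179). TFPI, the tissue factor pathway inhibitor, differed by -0.10 ± 0.07 (SE; adjusted p = 0.495).

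Of 5 further genes of the plasminogen system that were measured, 4 were above 0 and none was called, with 1 at an unadjusted p under 0.05, against 16.6% of all probe sets. This was SERPINB2, a urokinase inhibitor with a mean signal of 19.5 in medium and 6.23 in air animals (0.50 ± 0.21, SE; limma's adjusted p = 0.276). The urokinase receptor PLAUR had no probe set with a single symbol and was not analysed here. Of 9 measured thrombospondins and thrombospondin receptors, 6 were above 0 and none was called, with 3 at an unadjusted p under 0.05, against the same 16.6% of all probe sets. They were THBS2 (0.35 ± 0.12, SE; adjusted p = 0.199), THBS3 (0.39 ± 0.14; adjusted p = 0.206) and COMP, a thrombospondin of cartilage matrix with a mean signal of 12.0 (0.55 ± 0.12; adjusted p = 0.0934). The receptor CD47 differed by -0.08 ± 0.10 (SE; adjusted p = 0.742).

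Several cell type lists moved with exposure beside the members, and their part in these results was not tested. Epithelial markers, 7 of 10 measured, had a summed signal of 3315 to 3708 in air, 3679.8 to 4204 in low and 3870.1 to 4837 in medium animals, with 6 of 7 above 0 in medium minus air and MUC1 called lower. MUC1 fell by 0.74 ± 0.08 (SE; limma's adjusted p = 0.0197), a call lost under 6 of 17 alternatives, among them without any 1 of animals 28, 29, 41 and 44 (adjusted p up to 0.133). Ciliated cell markers, 5 of 8 measured, had sums of 1031 to 1058 in air, 1383 to 1596 in low and 768 to 1252 in medium animals, so that the low animals lay above both other groups. They were above 0 for 5 of 5 in low minus air and below 0 for 5 of 5 in medium minus low, with none called by limma. At an unadjusted p under 0.05, 2 were higher in low minus air, where 7.42% of all probe sets reached that level. In medium minus low 5 were lower, against 18.2%. Smooth muscle markers, 8 of 10 measured, ran from 9345 to 11685 in medium and 8044 to 9839 in air animals. T and NK cell markers, 9 of 14 measured, ran from 847 to 1592 in medium and 1814 to 1861 in air animals, with 8 of 9 below 0 in medium minus air and none called. At an unadjusted p under 0.05 in medium minus air, 5 epithelial markers were higher and 1 lower. At the same level 3 smooth muscle markers were higher and 3 T and NK cell markers lower, against 16.6% of all probe sets. Platelet markers, 4 of 10 measured, ran from 377 to 482 in medium and 379.8 to 634 in air animals, ranges that overlapped.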

How the data were processed

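Total RNA from lung lobes was labelled with biotin and hybridised to Affymetrix Porcine GeneChips, per the labels' protocols. The deposited intensity values of 24123 probe sets on 28 arrays had been scaled by the authors to a common trimmed mean, as the values show. The summarization software is not given in the sources used here. The 124 control probe sets were left out, which left 23999. An offset of 16 was added, log2 taken and arrays quantile normalized (R 4.3.3, limma 3.58.1). Animals were the replicates. Each animal's value came from a fit of arrays on animal and lobe, and exposures were compared with limma over 10 animals. Lobes were compared with the animal as a block, within-lobe tests used 1 array per animal, and the threshold for a call was an adjusted p of 0.05 (Benjamini-Hochberg over all probe sets tested). Mean signals per animal are plain means of the lobes present.

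Genes were named from GEO's platform annotation: 10069 probe sets had 1 symbol, 198 had several and 13732 were not listed. The gene IDs of all 10 members matched RefSeq. The members and lists were chosen with earlier results of these data known. Each member was tested in each comparison, and the text gives values for only some of these tests. For each gene's brightest probe set, the 3 most correlated genes were found among those with mean signal at or above the median. Not all of them are named. Alternatives were the scaling, the offset, the brighter probe sets, the animal as a random effect, fewer groups or animals, other variance settings, an RNA integrity covariate, no block and leaving out each animal. The same animal number in several lobes marks the same animal. Scripts were tested on simulated data. Figures used matplotlib 3.10.9. The number of arrays limits the precision, and scan dates were not used here.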

Additional observations from a re-analysis of the deposited data

Results flagged for a closer look

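Among the 4 medium animals, and among the 4 medium arrays of the median lobe, each member was tested for a single value far from the rest (Dixon's test, 20 groups of 4 values), and 2 were found. Chance gives about 1 in 20 groups. THBS1 on the third probe set had a normalized log2 value of 7.79 in the median lobe of medium animal 34, against 9.66 to 10.02 in the other medium animals. PLAU had 9.12 in the median lobe of medium animal 41, against 8.45 to 8.51 in the others.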

How the results depend on the processing

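Each result was recomputed under the alternatives listed with the methods, and the cause of a change was not tested unless named. No member difference in medium minus air over all lobes, or within the median or the caudal lobe, changed sign under any alternative run. With the deposited scaling, medium minus low called 1 probe set in the median lobe and apical minus caudal 19. With an offset of 1, low minus air and medium minus low called 1 and 2 in the median lobe, medium minus air 12 in the median lobe and 0 in the caudal lobe, with 0 members in each, apical minus median 205 with 0 members, and apical minus caudal 5. Among the brighter probe sets, where fewer were tested, medium minus air called 53, medium minus low 3, medium minus air 236 in the median and 2 in the caudal lobe, medium minus low 58 in the median lobe, apical minus median 1004 and apical minus caudal 150. With a random animal effect, low minus air called 28, medium minus air 1037 with 4 members and medium minus low 1393 with 3 members. With only the groups compared, fewer animals were fitted, and medium minus air called 0 and medium minus low 2. Trend and robust eBayes gave 5 for medium minus low, 55 for it in the median lobe and 4 for medium minus air in the caudal lobe, and the RNA integrity covariate gave 89 for medium minus air. With the 8 animals that have all lobes, medium minus air called 2, apical minus median 46 with 0 members, apical minus caudal 17 and median minus caudal 2. With only the air animals, apical minus median called 0 with 0 members and apical minus caudal 0, THBS1 turned to 0.44 on the third probe set in apical minus median and to -0.03 on the first in median minus caudal. On lobe-adjusted animal values, chosen after seeing the data, low and air animals did not overlap for 1 member. With arrays centred on the median, THBS1 on the first probe set turned to -0.017 in low minus air and PLAT to 0.019 in medium minus low.

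The lobe comparisons are paired, since the lobes come from the same animals. With no replicate block, apical minus median called 39 probe sets and 0 members, against 579 and 3 with it, and apical minus caudal called 1, against 40.

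Leaving out each animal in turn, the calls ran over these ranges. Medium minus air called 0 to 385 probe sets and 0 to 2 members over all lobes (4 without animal 28, 0 without 29 or 41, 241 without 34, 385 without 39, 11 without 42 and 1 without 44), 0 to 1 in the apical lobe, 0 to 398 with 0 to 2 members in the median lobe and 0 to 244 with 0 to 1 members in the caudal lobe. Medium minus low called 0 to 1373 with 0 to 2 members, 0 to 4 in the apical lobe, 0 to 1311 with 0 to 3 members in the median lobe and 0 to 92 with 0 to 1 members in the caudal lobe. The highest counts of probe sets in medium minus low, and in medium minus air within lobes, came without animal 34. Low minus air called 0 to 2, and 0 to 1 in the median and in the caudal lobe. Apical minus median called 33 to 570 with 0 to 3 members (33 without animal 34, 38 without 42, 63 without 44, 65 without 39, 148 without 28, 253 without 32 and 382 or more without 29, 31, 33 or 41), apical minus caudal 1 to 66, median minus caudal 0 to 3, and the interaction 0 to 1 probe sets, a member, without animal 28. In low minus air THBS1 ran from -0.058 to 0.083 on the first and from -0.972 to 0.024 on the third probe set, and THBD from -0.108 to 0.072. PLAT ran from -0.173 to 0.14 in medium minus low. In medium minus air in the apical lobe, THBS1 ran from -0.108 to 1.113 on the third and from -0.015 to 0.048 on the fifth probe set, and SERPINE2 from -0.003 to 0.333.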
